A study of Mus musculus with 8 samples.

Results

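Genes of the oligodendrocyte lineage and of myelin were followed in RNA sequencing data from the prefrontal cortex (PFC) of mice that overexpressed *Rnf146*, a ubiquitin ligase, or eGFP. The members were chosen by gene symbol, and 43 of the 44 symbols had a row among the 15039 genes of the table. The protease gene *Klk6* had no row. Both groups were wild-type male C57BL/6NCrljOri mice aged 6 weeks that received a bilateral PFC injection of AAV2/1. The control vector carried eGFP (AAV-eGFP, eGFP-overexpressing mice), and the other carried mouse *Rnf146* together with eGFP (AAV-RNF146, Rnf146-overexpressing mice). In both vectors expression was driven by the hSyn promoter, which is active in neurons, so oligodendrocytes were not the cells addressed by the vectors. The PFC was dissected 4 weeks after injection, and each group had 4 libraries, numbered 1 to 4. The labels do not state whether a library came from a single mouse, so the p-values describe the spread between these libraries only.

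Oligodendrocytes wrap axons in myelin, a stack of lipid-rich membrane. They arise from precursor cells, which carry the PDGF receptor *Pdgfra* and the proteoglycan *Cspg4* and remain in the adult cortex. Precursors pass through a short newly formed stage, marked by *Gpr17*, *Bcas1* and *Enpp6*, before they express the genes of the myelin sheath. The transcription factors *Sox10*, *Olig1* and *Olig2* are present along the lineage, whereas *Myrf* and *Nkx6-2* belong to its late part. Myelin is denser in the white matter beneath the cortex than in the cortex itself.

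The table holds normalized values on a log2 scale, from 7.86 to 18.8. Same-numbered libraries form a pair, and in every pair the 2 values of a gene add up to the same sum (largest spread of the sums 1.4e-13). A gene therefore carries its mean level and 4 pair differences, given here as the Rnf146 value minus the eGFP value. A pair difference cannot be assigned to one library of the pair. Over all genes, the pair medians ran from -0.0020 to 0.0037. *Rnf146* was higher by 2.82, 2.51, 2.66 and 2.58 in pairs 1 to 4, the direction the labels give (limma with a block for the pair, adjusted p = 3.2e-07), and vector and endogenous transcripts are counted together. The depth of the libraries is unknown, because no counts are in the table. As the RNA is from whole tissue, more oligodendrocytes and more RNA per oligodendrocyte cannot be told apart.

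Most of the mature oligodendrocyte and myelin genes were lower in the Rnf146 library than in the eGFP library of pair 1 and higher in pairs 2, 3 and 4, whereas the 2 precursor genes stayed between -0.08 and 0.11 in the 4 pairs. Averaged over the 43 members, the difference was -0.15, 0.32, 0.56 and 0.38 in pairs 1 to 4, and the mean over pairs was 0.28 ± 0.30 (SD, n = 4), less than 1 SD from 0. With limma and the block, 1 of the 43 members, *Tspan2*, had an adjusted p of 0.1 or less, the study's threshold, where 1.25% of all genes did. An unadjusted p under 0.05 was found for 28 of the 43 members, against 12.4% of all genes. The median difference was 0.27 over the members and 0.00086 over all genes. In all, 42 of the 43 members had a mean difference above 0, against 7598 of the 15039 genes, and the exception was *Pdgfra*.

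The pairs stood in a similar order in most members. Of the 43 members, 34 were lower in pair 1 and higher in pairs 2 to 4, a pattern that was chosen after the values were seen and that 7.97% of all genes showed. The lowest difference was that of pair 1 in 40 members, and the highest was that of pair 3 in 34 members. Over all 15039 genes these counts were 4357 and 3997. A difference above 0 was seen in 7 members in pair 1, 42 in pair 2, 41 in pair 3 and 41 in pair 4. Over all genes it was seen in 7529, 7623, 7687 and 7392. Of the 43 members, 5 were higher in all 4 pairs (*Tspan2*, *Tmem88b*, *Aspa*, *Qdpr* and *Sirt2*), where 10.4% of all genes were. None of the members was lower in all 4 pairs, so 5 of 43 had the same direction throughout, against 20.6% of all genes. As the pair sums are equal, the groups of a gene with 1 direction in all 4 pairs cannot overlap, so the lack of overlap in these 5 genes only restates the signs. The smallest two-sided p of an exact sign-flip test on 4 pairs is 0.125.

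**Figure D1:**
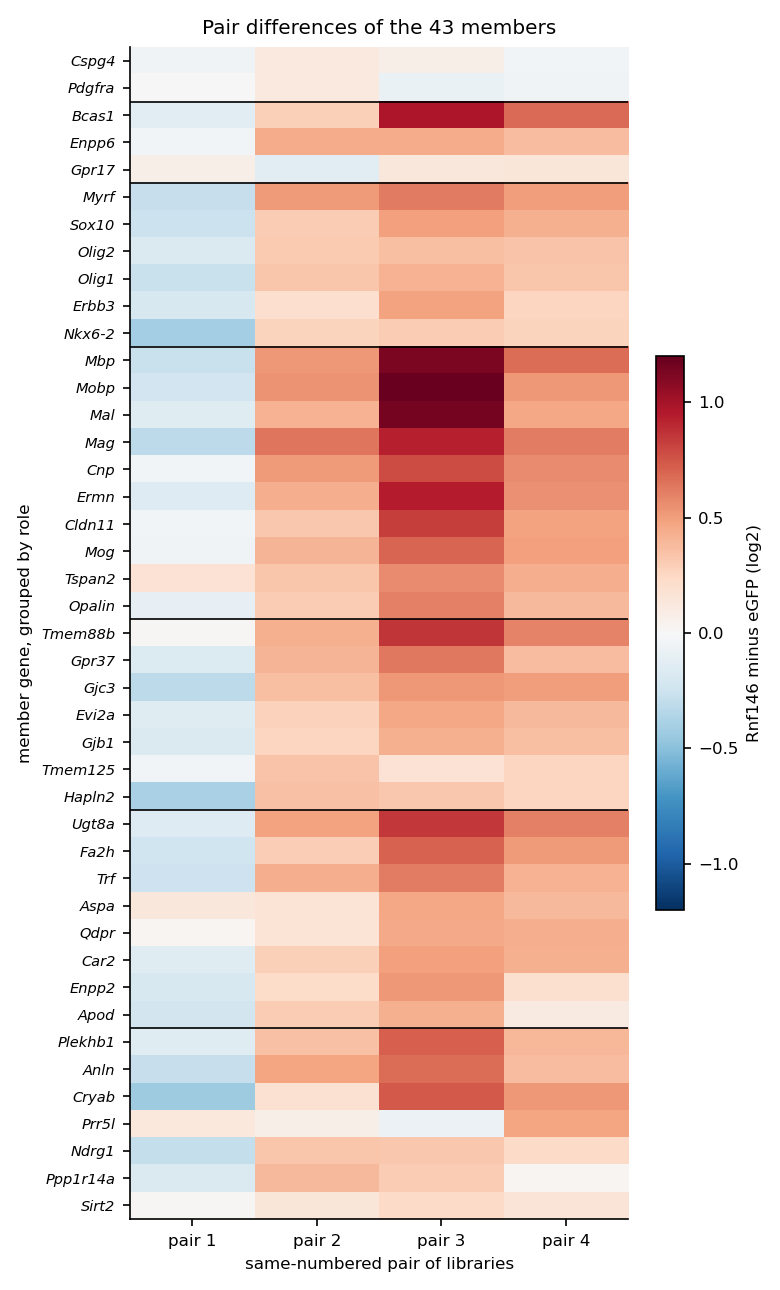
Differences (Rnf146 minus eGFP, log2, colour) of the 43 members in the 4 same-numbered pairs of libraries, with the members grouped by role and ordered by mean difference. Pair 1 is mostly blue, with 7 members above 0, pairs 2 to 4 are mostly red, and the 2 precursor genes in the top rows are pale throughout.

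The precursor genes came first in the order of the lineage. *Pdgfra* (chromosome 5 of GRCm39, 75311994 to 75358876, plus strand), whose product receives the PDGF signal that drives precursor division, had values of 10.91, 10.86, 10.95 and 10.93 in the eGFP libraries 1 to 4 and of 10.91, 10.97, 10.88 and 10.89 in the Rnf146 libraries. The 2 groups overlapped, which only restates that the difference changed its sign between pairs. It was -0.0013, 0.11, -0.08 and -0.04, with a mean of -0.0017 (95% confidence interval from limma -0.11 to 0.11, adjusted p = 0.994). *Cspg4*, which encodes the NG2 proteoglycan, had differences of -0.05, 0.11, 0.07 and -0.04, with a mean of 0.03 ± 0.08 (SD over n = 4 pairs; limma, adjusted p = 0.889). The interval for *Cspg4* ran from -0.09 to 0.14. Mural cells also express *Cspg4* and fibroblasts *Pdgfra*.

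The 3 genes of newly formed oligodendrocytes did not behave alike. *Bcas1*, found in cells that begin to myelinate, had values of 11.57, 11.36, 11.02 and 11.16 in the eGFP libraries and of 11.44, 11.65, 11.99 and 11.84 in the Rnf146 libraries. The overlap of its groups only restates that pair 1 was below 0. Its differences were -0.13, 0.29, 0.97 and 0.68, and the mean was 0.45 ± 0.48 (SD, n = 4 pairs; limma, adjusted p = 0.265). *Enpp6*, a choline phosphodiesterase, had a difference of -0.03 in pair 1 and of 0.45, 0.45 and 0.37 in the others, with an adjusted p of 0.175 from limma. The receptor gene *Gpr17* had 0.07, -0.13, 0.14 and 0.14, with a mean of 0.06 ± 0.13, and did not follow the order of pairs seen in the myelin genes.

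All 6 lineage transcription factors and receptors were lower in pair 1 and higher in the other 3 pairs, against 7.97% of all genes. None passed the threshold in limma, where 1.25% of all genes did. An unadjusted p under 0.05 was found for 2 of them, against 12.4% of all genes. *Olig1* had the highest level of the 6, with values of 11.17, 10.87, 10.83 and 10.87 in the eGFP libraries and of 10.90, 11.20, 11.25 and 11.20 in the Rnf146 libraries. In pairs 2 to 4 the differences of *Olig1* were close together, with pair 1 reversed. Its differences were -0.27, 0.33, 0.42 and 0.33. *Olig2*, its neighbour on chromosome 16, had -0.17, 0.32, 0.36 and 0.34, and *Sox10* had -0.26, 0.30, 0.49 and 0.43. The largest mean difference of the group was that of *Myrf*, the factor that switches on the myelin genes, at 0.34 ± 0.41 (SD, n = 4 pairs), with -0.27, 0.51, 0.63 and 0.50 in the pairs and an adjusted p of 0.335 from limma. *Nkx6-2* had -0.41, 0.26, 0.31 and 0.26, with the smallest mean difference, 0.11 ± 0.34. *Erbb3*, a neuregulin receptor, had -0.19, 0.21, 0.48 and 0.26.

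**Figure D2:**
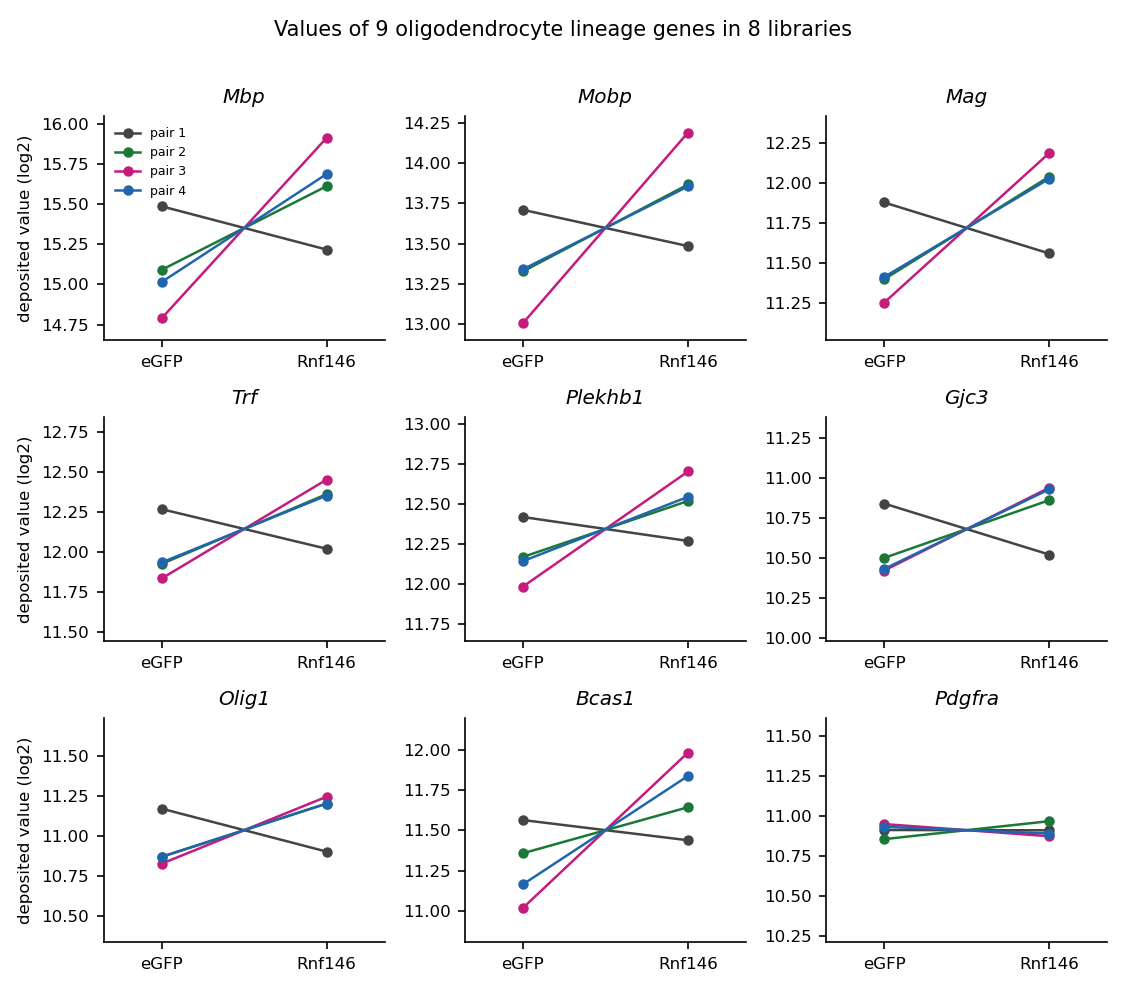
Deposited log2 values of 9 members in the eGFP and Rnf146 libraries, with a line for each same-numbered pair and the same height of the axis, centred on the gene's mean, in every panel. The line of pair 1 slopes opposite to the other 3 in 8 panels, pair 3 is the steepest in *Mbp* and *Mobp* (1.13 and 1.19), and the 4 lines of *Pdgfra* are almost flat.

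The 10 genes of myelin structure had the largest group mean of the roles, with -0.11, 0.44, 0.88 and 0.52 in pairs 1 to 4. *Mbp*, which encodes the myelin basic protein that holds the membrane layers together, was the most abundant member, at a mean value of 15.35. Its values were 15.49, 15.09, 14.79 and 15.02 in the eGFP libraries and 15.22, 15.61, 15.92 and 15.69 in the Rnf146 libraries. As the pair sums are equal, the overlap of its groups only restates that pair 1 was below 0. The differences of *Mbp* were -0.27, 0.52, 1.13 and 0.67, with a mean of 0.51 ± 0.58 (SD over n = 4 pairs; limma, adjusted p = 0.295).

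*Mobp* (chromosome 9 of GRCm39, 119973770 to 120011273, plus strand), another protein of compact myelin, had eGFP values of 13.71, 13.33, 13.00 and 13.34 and Rnf146 values of 13.48, 13.87, 14.19 and 13.86. The order of its pairs was that of *Mbp*, except that pair 2 lay slightly above pair 4, and its differences were -0.23, 0.54, 1.19 and 0.52. *Mag* (chromosome 7, 30598464 to 30614474, minus strand), an adhesion protein on the side of the axon, had eGFP values of 11.88, 11.40, 11.25 and 11.41 and Rnf146 values of 11.56, 12.04, 12.18 and 12.02. Its difference of -0.32 in pair 1 was the lowest of the group, against 0.64, 0.93 and 0.61 in the others. *Mal*, a membrane proteolipid, reached 1.15 in pair 3 and had -0.14 in pair 1.

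*Tspan2* (chromosome 3, 102641813 to 102708829, plus strand), a tetraspanin of the oligodendrocyte surface, was the only member that rose by the test. Its values were 11.43, 11.35, 11.24 and 11.31 in the eGFP libraries and 11.61, 11.69, 11.80 and 11.74 in the Rnf146 libraries, with the Rnf146 value higher in each pair. The differences of *Tspan2* were 0.17, 0.34, 0.56 and 0.43, with a mean of 0.38 ± 0.165 (SD over n = 4 pairs; limma, adjusted p = 0.056), and pair 1 was the lowest of them here too. The call was lost without any one of pairs 2, 3 and 4, where the adjusted p was 0.182, 0.116 and 0.286. The smallest mean difference of the group was that of *Opalin*, at 0.30 ± 0.29. *Cnp*, *Mog*, *Cldn11* and *Ermn* had mean differences of 0.46, 0.39, 0.40 and 0.44, and all of them were below 0 in pair 1. Each of the 10 genes of this group had an unadjusted p under 0.05 in limma, against 12.4% of all genes.

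Promoter sequences of 4 members are shown, to set a precursor gene with small differences (*Pdgfra*) beside 3 genes of mature cells whose pairs stood in like order (*Gjc3*, *Mag* and *Mobp*, the last 2 chosen after their values were seen). The sequences are from RefSeq on GRCm38.p6, run from 250 bases before to 50 bases after a gene start, and are written 5′ to 3′ along the strand of the gene. They lie at chr5:75152001-75152300 (plus strand), chr5:137963049-137963348 (minus), chr7:30914873-30915172 (minus) and chr9:120149492-120149791 (plus). Capitals mark exact matches, on either strand, to the SOX motifs AACAAT and ACAAAG, the MYRF motif CTGGCAC and the E-box CAGCTG.
*Pdgfra*: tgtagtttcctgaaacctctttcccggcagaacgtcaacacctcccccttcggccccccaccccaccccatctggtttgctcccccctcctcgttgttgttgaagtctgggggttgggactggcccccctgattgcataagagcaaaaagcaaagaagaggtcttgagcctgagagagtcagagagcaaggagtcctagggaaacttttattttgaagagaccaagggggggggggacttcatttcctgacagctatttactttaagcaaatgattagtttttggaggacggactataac
*Gjc3*: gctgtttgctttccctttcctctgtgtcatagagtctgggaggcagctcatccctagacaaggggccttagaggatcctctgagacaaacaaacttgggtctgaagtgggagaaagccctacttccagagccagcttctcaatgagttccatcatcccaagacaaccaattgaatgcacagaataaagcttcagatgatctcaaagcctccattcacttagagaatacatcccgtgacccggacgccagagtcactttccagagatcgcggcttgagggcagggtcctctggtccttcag
*Mag*: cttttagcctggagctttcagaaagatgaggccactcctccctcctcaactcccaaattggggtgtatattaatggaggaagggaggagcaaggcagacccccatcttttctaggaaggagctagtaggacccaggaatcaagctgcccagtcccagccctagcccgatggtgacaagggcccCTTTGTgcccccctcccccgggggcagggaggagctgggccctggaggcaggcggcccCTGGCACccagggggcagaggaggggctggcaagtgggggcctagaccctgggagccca
*Mobp*: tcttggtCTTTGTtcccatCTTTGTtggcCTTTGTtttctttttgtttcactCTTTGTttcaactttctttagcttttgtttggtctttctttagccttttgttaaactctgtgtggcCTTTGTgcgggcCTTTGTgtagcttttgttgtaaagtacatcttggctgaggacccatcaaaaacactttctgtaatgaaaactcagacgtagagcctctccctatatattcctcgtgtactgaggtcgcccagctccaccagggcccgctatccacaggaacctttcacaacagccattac

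The window of *Mag* holds 2 matches, 1 to ACAAAG and 1 to CTGGCAC, and that of *Mobp* holds 6, all to ACAAAG in its reverse complement. The windows of *Pdgfra* and *Gjc3* hold 0, which says only that these letters are not in these 300 bases. Promoter windows were found for 29 of the 43 members, 38 windows in all. CTGGCAC is in 15.8% of them (*Cnp*, *Hapln2*, *Mag*, *Opalin* and *Tmem125*) and in 5.01% of the 32851 windows of all genes. AACAAT is in 23.7% against 10.7%, ACAAAG in 28.9% against 18.7%, and CAGCTG in 15.8% against 16.3%. No match overlaps another in the printed windows, and a match is a description of the letters, not of binding.

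Genes of gap junctions and other surface proteins had a smaller group mean, 0.26 ± 0.30 (SD, n = 4 pairs), and all 7 were lowest in pair 1. *Gjc3*, a connexin, had the highest level of the 7, with eGFP values of 10.84, 10.50, 10.42 and 10.43 and Rnf146 values of 10.52, 10.86, 10.94 and 10.93. With equal pair sums, the overlap of its groups only restates the sign of pair 1. The differences were -0.32, 0.36, 0.52 and 0.50, with a mean of 0.26 ± 0.39 (SD over n = 4 pairs; limma, adjusted p = 0.440). *Tmem88b* had the largest mean difference of the group and its smallest p, with 0.02, 0.42, 0.85 and 0.60 in the pairs and an adjusted p of 0.140 from limma. *Hapln2*, a link protein of the node of Ranvier, had the smallest mean, 0.13 ± 0.35, with -0.39 in pair 1 and 0.35, 0.33 and 0.26 in the others. *Gjb1*, *Gpr37*, *Evi2a* and *Tmem125* had mean differences of 0.22, 0.31, 0.25 and 0.18.

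Among the genes of lipid synthesis, metabolism and secreted proteins, *Trf*, the iron carrier transferrin, had the highest level. Its values were 12.27, 11.93, 11.84 and 11.94 in the eGFP libraries and 12.02, 12.36, 12.45 and 12.35 in the Rnf146 libraries. Its difference was -0.25 in pair 1, against 0.43, 0.62 and 0.42 in the others. The groups overlapped, which only restates these signs. *Ugt8a*, which makes the galactolipids of myelin, had the largest mean difference of the 8, at 0.45 ± 0.43 (SD, n = 4 pairs), with -0.15, 0.48, 0.85 and 0.60 in the pairs. *Apod*, an apolipoprotein, had the smallest, at 0.16 ± 0.28, with -0.22, 0.31, 0.43 and 0.11. *Aspa*, which cleaves N-acetylaspartate to feed lipid synthesis, had the smallest p, with 0.13, 0.17, 0.46 and 0.39 and an adjusted p of 0.121 from limma. The mean differences of *Fa2h*, *Qdpr*, *Car2* and *Enpp2* were 0.32, 0.27, 0.26 and 0.19.

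In the last group, of cytoskeletal, signaling and stress genes, *Plekhb1* had the highest level and the largest mean difference. Its values were 12.42, 12.17, 11.98 and 12.14 in the eGFP libraries and 12.27, 12.52, 12.70 and 12.55 in the Rnf146 libraries, with differences of -0.15, 0.35, 0.72 and 0.40. *Sirt2*, a deacetylase of tubulin, had the smallest mean difference, 0.13 ± 0.09 (SD, n = 4 pairs; limma, adjusted p = 0.320), with 0.01, 0.14, 0.23 and 0.15 in the pairs, and neurons express it too. *Cryab*, a small heat shock protein, had the lowest difference of all members in pair 1, -0.43, and 0.73 in pair 3. *Prr5l* was the only one of these 7 genes below 0 in pair 3, with 0.13, 0.07, -0.07 and 0.47. *Anln*, *Ndrg1* and *Ppp1r14a* had mean differences of 0.31, 0.15 and 0.14, each below 0 in pair 1.

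The comparison of precursor with mature genes rests on 2 and 35 members. The mature genes averaged -0.16, 0.35, 0.60 and 0.41 in pairs 1 to 4, with a mean of 0.30 ± 0.32 (SD over n = 4 pairs). The precursor genes averaged -0.02, 0.11, -0.0023 and -0.04, with a mean of 0.01 ± 0.07. Mature minus precursor was -0.13, 0.23, 0.60 and 0.45, with a mean of 0.29 ± 0.32, so this difference too was smaller than its spread between pairs. The 3 lineage-wide factors averaged -0.23, 0.32, 0.42 and 0.37, and the 3 newly formed genes -0.03, 0.20, 0.52 and 0.40. No p is given for these averages, since the members were chosen with results of these libraries known.

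**Figure D3:**
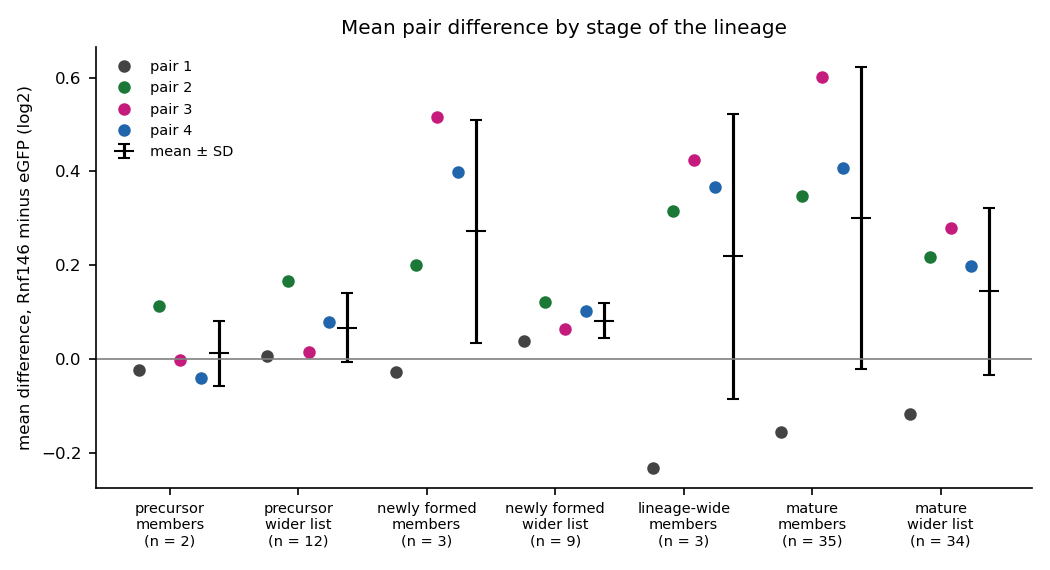
Mean difference (Rnf146 minus eGFP, log2) of the genes of each stage in each pair (points), with the mean ± SD over the 4 pairs (bars), for the members and for the wider lists. The mature members run from -0.16 in pair 1 to 0.60 in pair 3, while the 2 precursor members lie between -0.04 and 0.11.

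Wider lists of the same stages hold other genes than the members. Over all genes, 1.25% passed the threshold in limma and 12.4% had an unadjusted p under 0.05, so counts of 0 passed lie near the background. Of 12 precursor genes, 0 passed the threshold in limma and 3 had an unadjusted p under 0.05, the list averaged 0.01, 0.17, 0.02 and 0.08 in the pairs, and the median difference was 0.08. The largest were *Cacng4* at 0.24 (limma, adjusted p = 0.156), *Lhfpl3* at 0.18 and *Megf11* at 0.15. Of the 10 newly formed genes listed, 9 had a row, 0 passed, 2 had an unadjusted p under 0.05, and the median was 0.09. The newly formed list averaged 0.04, 0.12, 0.06 and 0.10 in pairs 1 to 4, with pair 2 the highest and pair 1 above 0. *Kif19a* had the largest mean difference of these 9 genes, 0.33, with 0.07, 0.28, 0.53 and 0.44 in the pairs, followed by *Tmem163* at 0.13 and *Bmp4* at 0.09. Of the 36 mature genes listed, 34 had a row, 0 passed, and 12 had an unadjusted p under 0.05. The mature list averaged -0.12, 0.22, 0.28 and 0.20, with a median of 0.14. In it 27 of the 34 genes were lower in pair 1 and higher in the other pairs, the pattern chosen after the values were seen. The same pattern was found in 3 of the 12 precursor genes, 2 of the 9 newly formed genes and 7.97% of all genes. *Adamts4*, *Plekhh1* and *Lpar1* had the largest mean differences, 0.39, 0.37 and 0.30.

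The SD of the 4 pair differences had a median of 0.32 over the members and of 0.10 over all genes. In 33 of the 43 members it was above percentile 95 of all genes, and the median member was at percentile 98.1. Such a spread was not particular to them, since the striatal medium spiny neuron markers had a median SD of 0.61, and all 10 of those lay above percentile 95. *Mbp* and *Mobp*, both with an SD of 0.58, were at percentile 99.8, while *Pdgfra*, *Cspg4* and *Sirt2* were at percentiles 36.6, 34.5 and 43.4. Without pair 1 the median SD of the members was 0.15. limma draws the spread of a gene towards that of genes of similar level, and the median SD of the members was taken as 0.21 in the test in place of 0.32. With robust variances, which shrink such genes less, 19 in place of 28 members had an unadjusted p under 0.05, against 12.2% of all genes.

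**Figure D4:**
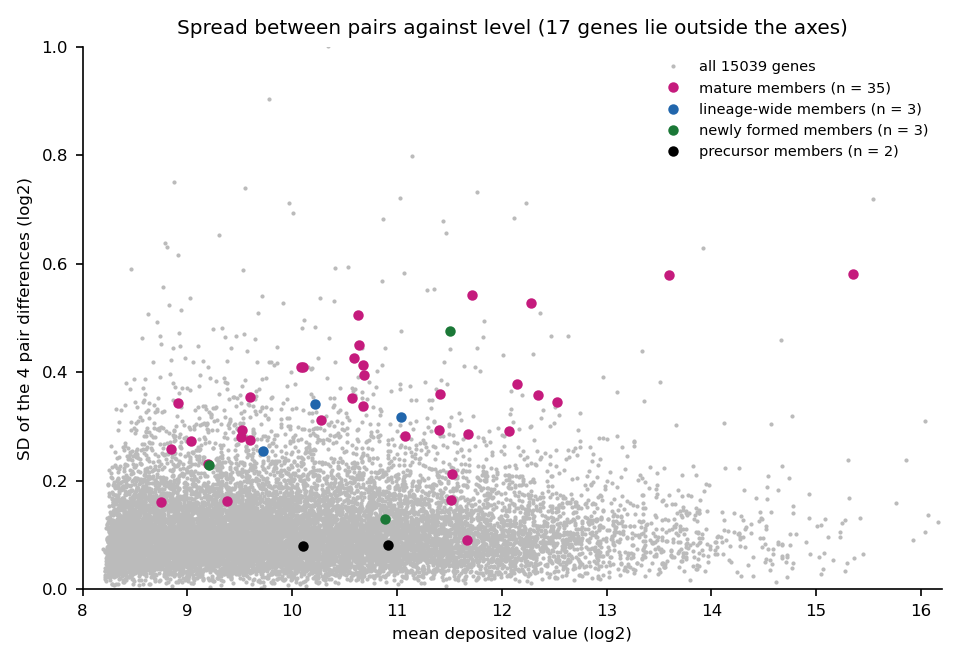
SD of the 4 pair differences (log2) against the mean deposited value (log2) for all 15039 genes (grey) and for the members by stage, with 17 genes outside the axes. Of the 35 mature members 29 lie above percentile 95 of all genes, up to 0.58 for *Mbp*, and the 2 precursor members lie lower, both at 0.08.

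Among the 35 mature members, those with higher levels had larger differences in pair 3, a pair chosen after the values were seen. Spearman's rho was 0.55 across genes, which share libraries and are not independent replicates. The SD over pairs holds the values of pair 3, so its own rho with the level, 0.43, is not separate from the first. Over all genes, the median SD was 0.086 at the lowest levels (8.20 to 8.50) and 0.097 at the highest (11.9 to 18.7). The part of the level in the differences was not tested.

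Markers of other cells moved in some of the same pairs. The list of striatal medium spiny neurons, 10 of 10 genes with mean values between 8.87 and 11.8, averaged -0.08, 1.28, 0.70 and 0.27, so that pair 1 was lowest there too but pair 2, not pair 3, was highest. None of these 10 passed the threshold in limma, with 0 called and 10 at an unadjusted p under 0.05, against 12.4% of all genes. Septal and basal forebrain genes (6 of 8) averaged 0.66, 0.85, 0.35 and 0.67, and all 6 passed the threshold. Cortical excitatory neuron genes (9 of 9, from 9.98 to 16.0) averaged -0.19, -0.36, -0.07 and -0.21, and 2 passed the threshold. Interneuron genes (7 of 7) averaged 0.09, 0.19, 0.20 and 0.21, with a mean of 0.17 but a median of -0.03. Of these, 3 passed the threshold, *Gad1*, *Gad2* and *Slc32a1*, all higher, where 1.25% of all genes passed. *Pvalb*, *Sst*, *Vip* and *Lhx6* had mean differences below 0. The part of these lists in the differences of the myelin genes was not tested.

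Astrocyte genes (8 of 8) averaged -0.09, -0.06, 0.02 and -0.06, and microglial genes (8 of 8) -0.18, -0.28, -0.09 and -0.14. Of the astrocyte genes 0 passed the threshold in limma, and of the microglial genes 1, where 1.25% of all genes passed. Endothelial genes (8 of 8) averaged 0.02, -0.06, 0.07 and -0.09, and mural and fibroblast genes (9 of 9) -0.01, -0.02, 0.02 and -0.06, and neither list had a gene past the threshold in limma or with an unadjusted p under 0.05. Ependymal genes averaged 0.24, 0.19, 0.36 and 0.29 and choroid plexus genes 0.45, 0.34, 0.23 and 0.14, each from 3 of 8 genes, since 5 of each list, the transthyretin gene *Ttr* among them, had no row. Of the 3 ependymal genes 2 passed the threshold, and of the 3 choroid plexus genes 1, *Clic6*. The mean of the choroid plexus genes was highest in pair 1, where that of the mature genes was lowest. The fall from pair 1 to pair 4 was largest in *Prlr*, with 0.70, 0.55, 0.25 and -0.05 in the pairs. *Kl* had 0.12, -0.04, -0.11 and -0.15, with a mean below 0. *Clic6* itself had 0.52, 0.50, 0.53 and 0.61 in the pairs (limma, adjusted p = 0.0044). Without the 8 mature members that other brain cells also use (*Enpp2*, *Trf*, *Car2*, *Apod*, *Cryab*, *Ndrg1*, *Qdpr* and *Sirt2*), a choice made after the values were seen, the mean of the mature genes was 0.33.

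**Figure D5:**
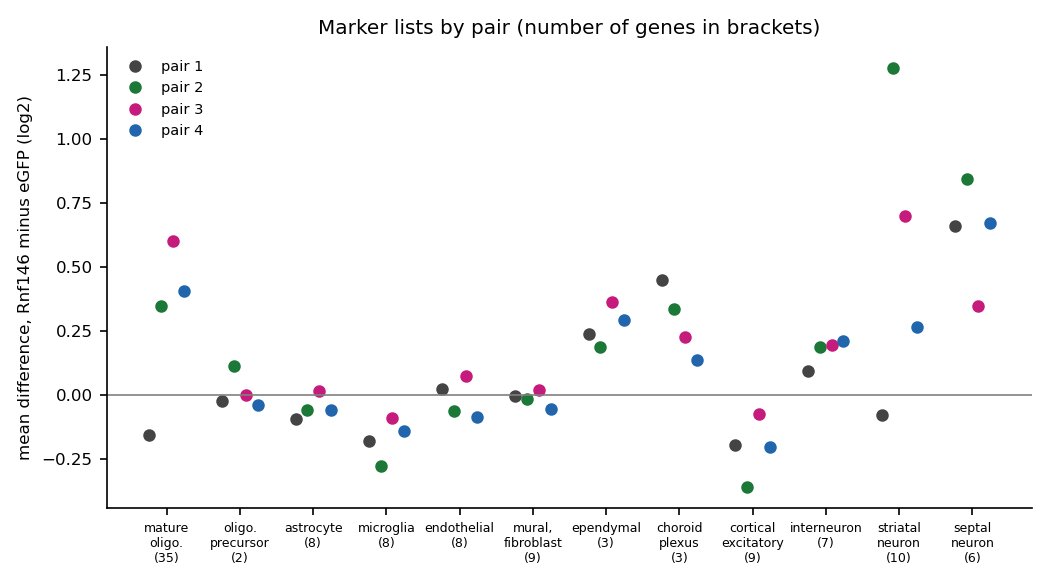
Mean difference (Rnf146 minus eGFP, log2) of marker lists in each pair (points), with the number of genes with a row in brackets. The mature oligodendrocyte genes are highest in pair 3, the striatal neuron genes in pair 2 at 1.28, and both are lowest in pair 1.

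The number of members called depended on which pairs were in the fit. Without pair 1, limma with the block called 36 of the 43 members, all of them higher in Rnf146-overexpressing mice, where 2.01% of all genes were called higher. *Mag*, *Myrf* and *Cnp* then had limma adjusted p-values of 0.0098, 0.0098 and 0.010, and the mean of the mature genes was 0.45. Without pair 2, 3 or 4 in turn, limma called 0 members, where 0.279%, 1.12% and 0.0931% of all genes were called, so the counts of 0 lie near the background. The mean of the mature genes was then 0.28, 0.20 and 0.26. An unadjusted p under 0.05 was found in these 3 fits for 15, 10 and 9 of the 43 members, against 8.19%, 11.6% and 9.20% of all genes. In a fit that takes the 8 values as separate libraries, with no replicate block, 23 of the 43 members were called, all higher, where 11.0% of all genes were called higher. That fit counts more residual degrees of freedom than the paired values hold.

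Exons of 11 members overlap those of another gene of the table in GENCODE vM39, among them *Mog* with *Zfp57*, *Cnp* with *Dnajc7*, *Gpr17* with *Lims2* and *Nkx6-2* with *Inpp5a*. In 10 of the 11 the other gene is on the opposite strand. The exception is *Mobp*, which shares a strand with the long noncoding RNA *Gm38642*. The library kit keeps the strand of the RNA, but whether the quantification used it is not given in the sources used here, so reads of these genes may have been shared.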

How the data were processed

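RNA of 8 PFC libraries, 4 per group, was sequenced after a stranded mRNA preparation. The authors trimmed the reads with Cutadapt, quantified transcripts with Salmon 1.9.0 against GENCODE vM30 (GRCm39) and deposited gene values under the name of normalized counts. The values deposited by the authors are on a log2 scale and were centred within same-numbered pairs; the transformation and the centring are not given in the sources used here. Each column was matched to its sample by name.

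Pair differences were tested across all 15039 genes with limma 3.58.1 in R 4.3.3 (lmFit, eBayes with trend, replicate number as a block, Benjamini-Hochberg adjustment) with 0.1 as the largest adjusted p for a call. The pairing comes from the replicate numbers of the labels and from the centring. The test was tested on simulated data. Depth, and the precision that counting gives, is unknown. Lists were described by counts, means and medians. Python 3.11.15 and pandas 2.3.3 were used otherwise.

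The members, roles, stages and lists were chosen with earlier results of these data known. Values in all libraries are given for the most abundant member of each role, and also for *Mobp*, *Mag* and *Tspan2*, chosen after their values were seen. Pair differences are given for precursor, newly formed and transcription factor genes and for the largest, smallest and lowest-p member of each other role. From the wider lists, the 3 genes with the largest mean difference are named. Alternatives were no block, a filter on the lowest 25% of genes, median centring, quantile normalization, untrended and robust variances, a threshold of 0.05 and each pair left out.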

Additional observations from a re-analysis of the deposited data

Results flagged for a closer look

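In 7 of 43 members and in 1 of 17 lists, the difference of pair 1 lay far below the other 3 by Dixon's test of 4 values. The difference in pair 1 was -0.032 in *Enpp6*, -0.27 in *Olig1*, -0.17 in *Olig2*, -0.39 in *Hapln2*, -0.28 in *Ndrg1*, -0.41 in *Nkx6-2* and -0.27 in *Myrf*. It was -0.23 in the mean of the 3 lineage-wide factors. Chance flags about 1 in 20 such groups, and the members share the same 4 pairs, so these are not separate events.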

How the results depend on the processing

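The mean of the mature genes, that of the precursor genes and their difference moved by less than the spread between pairs. This held under a filter on low values, median centring, quantile normalization and both changes of members. Each of these means is smaller than its spread, so a move to 0 would have met this mark too. Under these settings the mean of the mature genes ran from 0.30 to 0.33 and that of the precursor genes from 0.0072 to 0.06. Mature minus precursor ran from 0.24 to 0.31. Leaving out a single pair cannot move such a mean by as much as its spread between pairs, so it is no check by this mark. Over these settings and with each pair left out, the mean of the mature genes ran from 0.20 to 0.45. With each pair left out included, mature minus precursor ran from 0.18 to 0.43. *Rnf146* kept its call in every fit.

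Without the replicate block, the number of called genes rose from 188 to 3226 and of called members from 1 to 23. At an adjusted p of 0.05 or less, 80 genes and 0 members were called. With each pair left out in turn, 14 to 421 genes and 0 to 36 members were called. Members with the same direction in all pairs used numbered 5 to 39. Fewer pairs had to agree where a pair was left out. The share over all genes was not counted there, so the count of 39 cannot be set against a background. The median spread of the members ran from 0.15 to 0.38. The high counts of members and the low spread come without pair 1. The cause was not tested. The filter, centring, quantile normalization and untrended or robust variances left 1 member called. The sign of the mean difference changed in *Pdgfra* with median centring and without pair 3 or 4, and in *Cspg4* without pair 2, with no call.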
